A study of Mus musculus with 12 samples.

Results

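The genes described here encode 7 subunits of the GABA-A receptor, the chloride channel opened by the transmitter GABA. They are Gabra2, Gabra3, Gabra4 and Gabra5 for α subunits, Gabrb1 and Gabrb2 for β subunits, and Gabrd for the δ subunit. They were taken by name from a table of read counts on coding sequence (CDS) that holds 20504 genes. All 7 were found in it and all 7 passed the count minimum of every test.

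GABA-A receptors are pentamers, and most hold α subunits, β subunits and 1 subunit of another class. GABA binds between an α and a β subunit, and the α subunit largely sets where the receptor sits and how it responds. Receptors with α2 or α3 are found mainly at synapses, whereas receptors with δ, often together with α4, and many receptors with α5 lie outside synapses and carry tonic inhibition.

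Brain tissue of 6 adult mice gave all libraries. These Camk2a-RiboTag mice were bred from parents heterozygous for Camk2a-cre and parents homozygous for RiboTag. In their offspring with Cre, principal excitatory neurons of the forebrain carry an HA tag on the ribosomal protein Rpl22, and the control mice were of the same line. Mice A and B received vehicle by gavage (their labels read untreated), and AZD-8055, an inhibitor of the kinase mTOR, was given to mice C and D at 100 mg/kg, 1 h before they were killed. A ribosome profiling (footprint) library and a poly(A) RNA-Seq library were made from unsorted frontal lobe of each of these 4 mice. Mice E and F, labelled untreated, each gave an RNA-Seq library of tissue homogenate (input) and of polysomes immunoprecipitated with the HA tag (IP), so each group held 2 mice.

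Counts on CDS totalled 3503873 to 9259938 per footprint library, 9395385 to 10649939 per RNA-Seq library of mice A to D, and 9309496 to 15585831 per RiboTag library. Counts on exons, which include untranslated regions (UTRs), were at hand for the 8 RNA-Seq libraries only. No library of a group was a copy of its partner, since their counts differed by 2.61 to 9.53 times the variance that counting alone gives (chi-square per degree of freedom). The footprint library of mouse C was the shallowest and held 151 reads of Gabra5, the lowest count of a member in a footprint library.

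Gabra2, Gabra4 and Gabrb1 are neighbours on mouse chromosome 5 (GRCm38.p6). Gabra2 spans chr5:70958392-71095849 and Gabra4 chr5:71569734-71658308, both on the minus strand, and Gabrb1 spans chr5:71657921-72149572 on the plus strand. The annotated 5′ ends of Gabra4 and Gabrb1 overlap by 388 bases on opposite strands. Gabra5 lies at chr7:57407669-57591016 and overlaps a neighbouring β subunit gene by 499 bases, Gabrb2 at chr11:42419515-42632591, Gabra3 at chrX:72432676-72656919, and Gabrd at chr4:155384979-155398098, where it overlaps Cfap74 by 6000 bases. Whether reads were counted by strand is not given in the sources used here, so reads from the overlaps could not be assigned to 1 gene with certainty.

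Because mTOR is known to control mRNAs that start with a C followed by a run of pyrimidines (TOP mRNAs), the annotated transcript starts of the members are shown as the background to the AZD-8055 comparison. RefSeq windows on GRCm38.p6 were at hand for 6 of the 7 genes, Gabrd being the one without. Starts of 5 of them are printed. Each line gives 20 bases before and 10 bases from the start on, 5′ to 3′ on the strand of the gene, with the first 5 transcribed bases in capitals. The start is the most upstream one in the RefSeq window table, and for Gabra5 it lies inside the annotated gene span and not at its 5′ end.
Gabra2, chr5:71095840-71095869, minus strand: tcctcctcttcctcctcctcCTCCTccgcc
Gabra3, chrX:72656910-72656939, minus strand: gacagctttgaattggatccACACTtctac
Gabra4, chr5:71658299-71658328, minus strand: acctatgagaaaggctcttcATTGTttcca
Gabra5, chr7:57510050-57510079, minus strand: tctggcggcctctaccgggcGCCTAggcag
Gabrb1, chr5:71657901-71657930, plus strand: gcggcgtgcgcacactcgcgCTCACactcg
Gabra2 was the one gene of these whose start had a C followed by 4 bases that are each C or T, within a longer stretch of C and T that begins upstream of the start. Counting all annotated starts of the 6 genes, 1 of 10 windows held this pattern on the transcribed strand, against 2.51% of 32851 windows in the RefSeq table. A match describes the annotated start and is not evidence that a transcript starts there in these brains.

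Levels are given as CPM, the CDS count of a gene scaled to the total CDS count of its library, which compares libraries for 1 gene and not genes with each other, since coding lengths were not at hand.

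**Figure D1:**
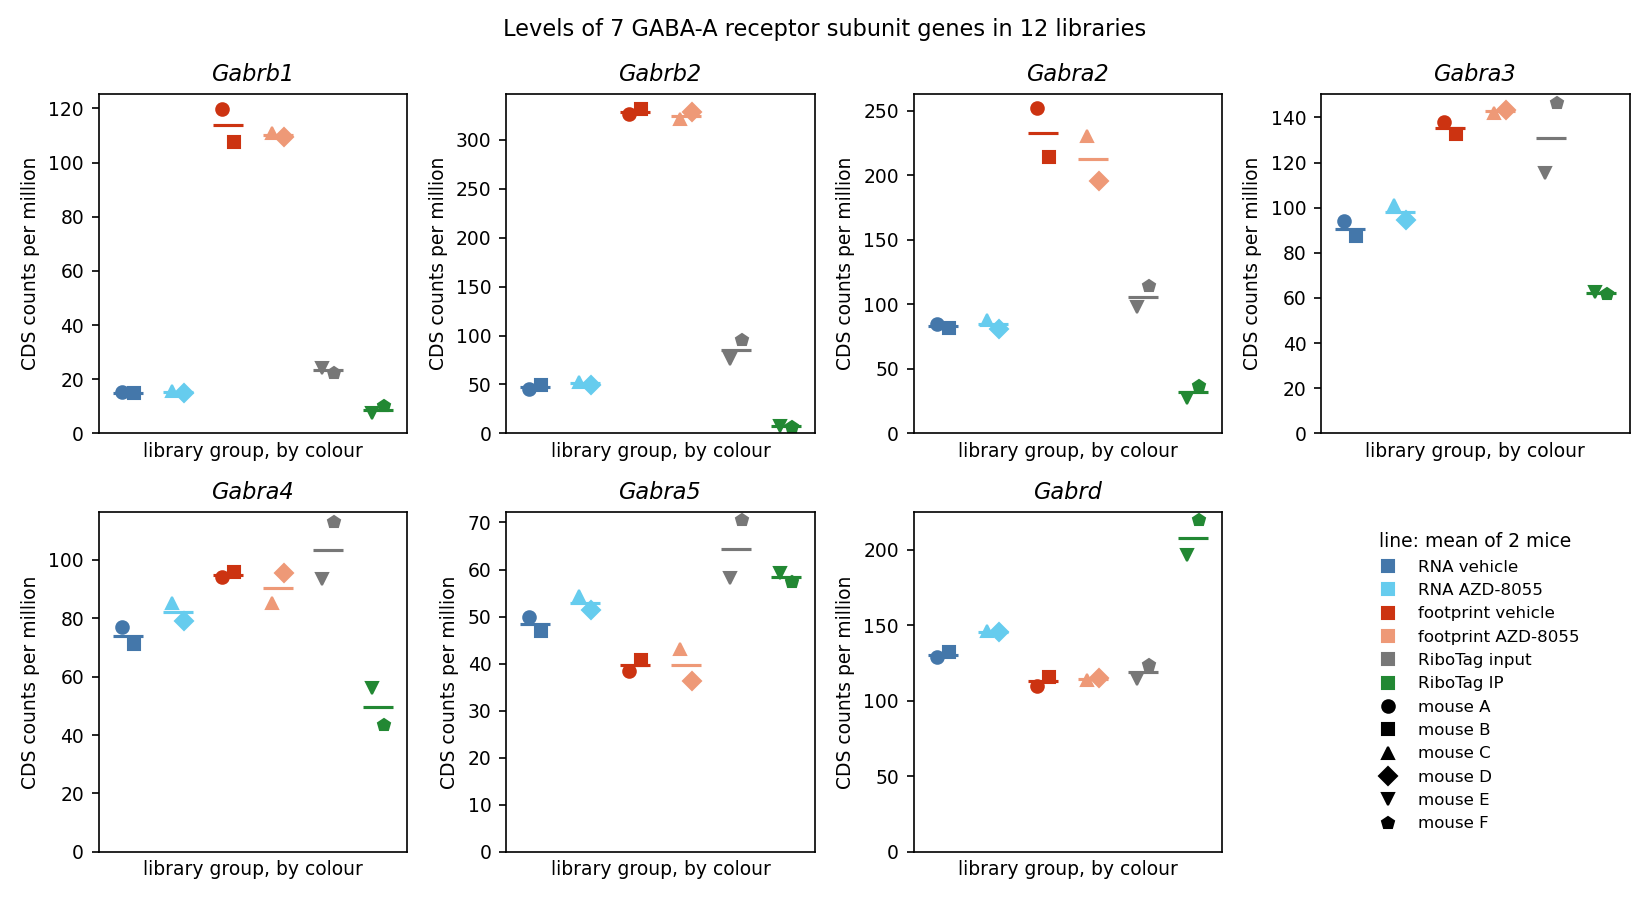
CPM on CDS of each gene (y axis, from 0) in the 12 libraries, 1 panel a gene; colour gives the library group, the symbol the mouse and the line the mean of 2 mice. Footprint levels of Gabrb1, Gabrb2 and Gabra2 lie far above their RNA levels, and Gabrd is the one gene whose IP levels (197 and 219 CPM) lie above all its other libraries.

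The first comparison asks how densely the mRNA of each subunit was covered by ribosomes. Footprints were set against RNA in the vehicle-treated mice, and translational efficiency (TE) was taken as footprints divided by RNA, each scaled by size factors, so that 0 on the log2 scale is about the median gene. The mRNAs of both β subunits had some of the highest TEs of all genes, α2 followed, α3 and α4 lay moderately above the median, and α5 and δ lay close to it. Of the 7 genes, 5 had more footprints than RNA relative to other genes and 0 had fewer (edgeR quasi-likelihood test, Benjamini-Hochberg adjusted p under 0.05), where 37.1% of 11797 genes tested were called higher and 36.7% lower.

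Gabrb1, which encodes β1, was at 15.1 CPM in the RNA of both mouse A and mouse B, and at 120 and 108 CPM in their footprints. Its log2 TE was 3.11 in mouse A and 2.91 in mouse B, a mean of 8.06-fold (3.01 ± 0.15 on the log2 scale, SD, n = 2), rank 24 of 10882 genes. The edgeR estimate was 3.08 ± 0.10 (SE, adjusted p = 1.05e-12).

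Gabrb2 encodes β2, which is part of many synaptic receptors of the adult brain. It was at 45.1 and 49.2 CPM in RNA and at 326 and 331 CPM in footprints of mice A and B. Its log2 TE was 2.98 and 2.82, rank 31 of 10882 genes, and the edgeR estimate was 2.96 ± 0.08 (SE, adjusted p = 1.95e-13).

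Among the α subunits, Gabra2 was at 84.5 and 81.8 CPM in RNA and at 252 and 214 CPM in footprints of mice A and B, with a log2 TE of 1.70 and 1.46. The edgeR estimate was 1.65 ± 0.10 (SE, adjusted p = 5.27e-10), and its mean TE lay at the 96.1th percentile of all genes. Gabra3 was at 94.0 and 87.5 CPM in RNA and at 138 and 133 CPM in footprints. Its edgeR estimate was 0.74 ± 0.08 (SE, adjusted p = 3.34e-07).

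On CDS counts the ratios of Gabra4, Gabra5 and Gabrd were smaller. Gabra4 was at 76.8 and 71.3 CPM in RNA and at 94.1 and 95.8 CPM in footprints, an estimate of 0.51 ± 0.08 (SE, edgeR adjusted p = 4.90e-05). Gabra5 was at 49.8 and 47.0 CPM in RNA and at 38.4 and 40.9 CPM in footprints, and Gabrd was at 129 and 132 CPM in RNA and at 110 and 116 CPM in footprints. For both genes the footprint CPM lay under the RNA CPM in both mice, but relative to other genes the edgeR estimates were −0.14 ± 0.11 for Gabra5 (SE, adjusted p = 0.262) and −0.06 ± 0.07 for Gabrd (SE, adjusted p = 0.475). Scaling by total counts moves the median gene from 0.01 to −0.15, and with it both genes were called lower, at −0.29 and −0.21.

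The mice given AZD-8055 gave the same comparison in other animals. In RNA and footprints Gabrb1 was at 15.6 and 15.0 against 111 and 109 CPM in mice C and D, Gabrb2 at 52.8 and 49.7 against 321 and 328 CPM, and Gabra2 at 87.9 and 81.2 against 230 and 195 CPM. The edgeR test called 5 members higher and 2 lower, where 35.2% of genes were called higher and 35.3% lower. The estimates were 2.97 for Gabrb1, 2.79 for Gabrb2, 1.45 for Gabra2, 0.67 for Gabra3 and 0.27 for Gabra4, and they were −0.30 for Gabra5 and −0.23 for Gabrd. The calls of the 3 genes nearest 0 were lost when 1 mouse was left out. Without mouse D, Gabra4 was at 0.13 (edgeR adjusted p = 0.399) and Gabra5 at −0.21 (edgeR adjusted p = 0.273), and Gabrd was at −0.23 without either mouse C or mouse D (edgeR adjusted p = 0.0706 and 0.0670), the same estimate as with both. Gabra4 was also not called with total counts as the scale (0.14, edgeR adjusted p = 0.148) or with a minimum of 1 count on average (0.13, edgeR adjusted p = 0.268), which left 4 members higher.

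Over the 4 mice the order of the mean log2 TE was Gabrb1 (2.96), Gabrb2 (2.81), Gabra2 (1.48), Gabra3 (0.64), Gabra4 (0.33), Gabrd (−0.20) and Gabra5 (−0.27). Values of neighbouring genes in this order overlapped between mice for Gabrb1 and Gabrb2 and for Gabrd and Gabra5, and were separate for the 4 other neighbouring pairs. The highest and the lowest member differed by 9.19-fold in the vehicle-treated mice. Their mean log2 TEs spread with an SD of 1.34 across the 7 genes, next to 0.99 across 10882 genes.

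These ratios depend on where RNA reads are counted. Exon counts were 10.4 and 11.5 times the CDS counts of Gabrb2 in the RNA of mice B and A, next to a median of 1.53 over all genes, and the gene lay at the 99.1th percentile or above in both. The ratios were 2.85 in both mice for Gabra3, 3.01 and 3.15 for Gabra4, 1.59 and 1.63 for Gabra2, and 1.50 and 1.59 for Gabra5. Gabrb1, at 1.25 and 1.30, and Gabrd, at 1.19 and 1.21, lay under the median gene.

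With RNA counted on exons and footprints still on CDS, an alternative chosen after seeing the data, Gabrb1 stayed the highest member at 3.54 ± 0.10 (SE, edgeR adjusted p = 5.48e-13) and Gabra2 was at 1.78 (edgeR adjusted p = 6.26e-10). Gabrb2 fell from 2.96 to 0.32 ± 0.07 (SE, edgeR adjusted p = 0.000714), still called higher. Gabra3 was at 0.04 and no longer called (edgeR adjusted p = 0.624), Gabra4 turned to −0.29 (edgeR adjusted p = 0.00133), and Gabrd was called higher at 0.50 (edgeR adjusted p = 5.54e-06). In this fit 4 members were called higher and 1 lower, where 36.1% of genes were called higher and 38.2% lower. In mice C and D the same 4 genes were called higher and Gabra4 lower, where 34.7% of genes were called higher and 36.4% lower.

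**Figure D2:**
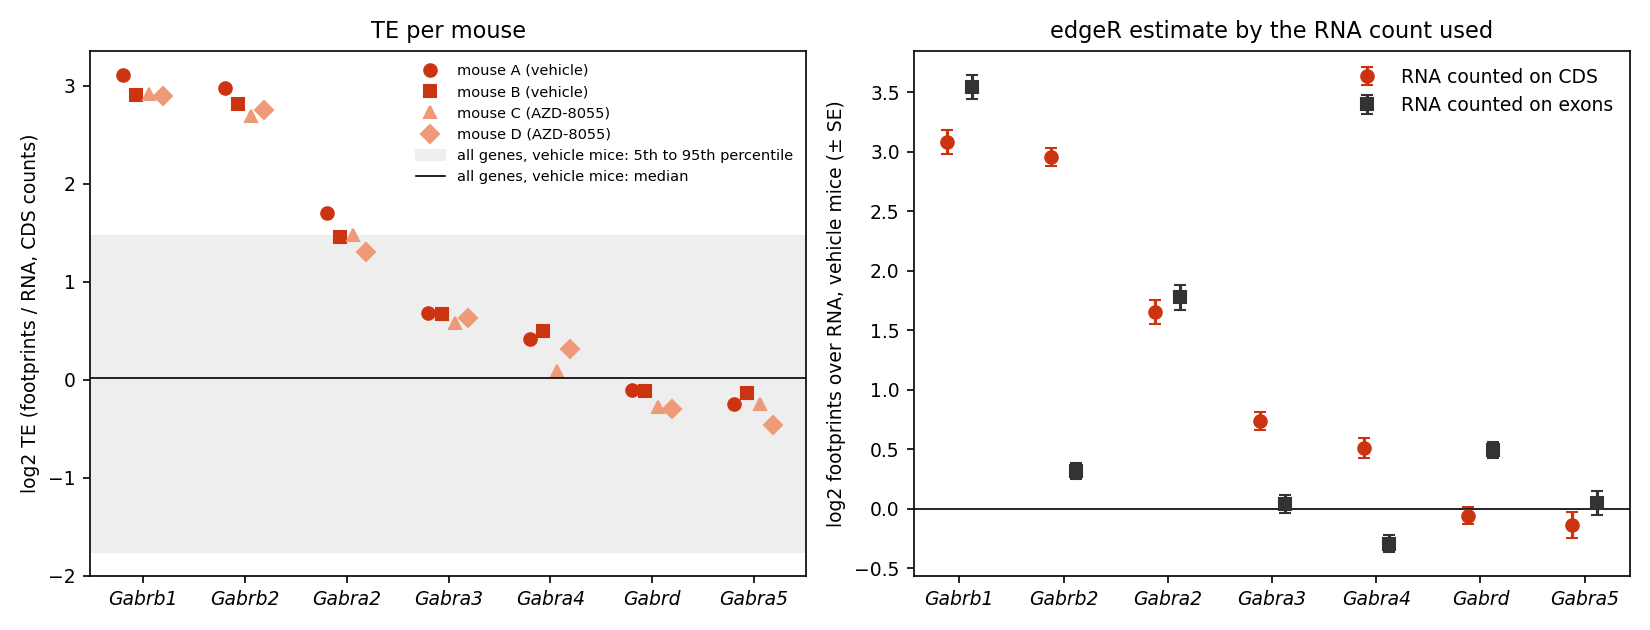
Left, log2 TE on CDS counts (y axis) of each gene in mice A to D, with the median and the 5th to 95th percentile of all genes in the vehicle-treated mice; Gabrb1 and Gabrb2 lie near 3, above the band. Right, edgeR log2 estimates of footprints over RNA in the vehicle-treated mice with RNA counted on CDS or on exons, bars giving the SE; Gabrb2 moves from 2.96 to 0.32 and Gabrb1 from 3.08 to 3.54.

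The next comparison asks whether acute mTOR inhibition changed the RNA, the footprints or the TE of these subunits. For 0 of the 7 genes did any of the 3 pass the test, by edgeR, DESeq2 or limma-voom. Calls were few among all genes too, 0.148% of 12182 genes for RNA, 1.01% of 10695 genes for footprints and 0.865% of 11797 genes for TE. At an unadjusted p under 0.05 the edgeR test held 1 member for RNA (Gabrd), 0 for footprints and 0 for TE. Among all genes it held 1004 of 12182 for RNA, 1371 of 10695 for footprints and 798 of 11797 for TE.

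Gabrd RNA was at 129 and 132 CPM in the vehicle-treated mice and at 146 and 145 CPM in the AZD-8055 mice, so the groups did not overlap, and the log2 change was 0.17 (95% interval 0.02 to 0.31, edgeR adjusted p = 0.535). On CDS counts RNA of Gabra3, Gabra4, Gabra5 and Gabrb2 also lay above both vehicle-treated mice in both AZD-8055 mice. That is 5 of 7 genes, where 18.1% of all genes did so. For Gabra2 and Gabrb1 the groups overlapped. All 7 RNA estimates on CDS were above 0, from 0.03 (Gabrb1) to 0.17 (Gabrd), next to 49.0% of all genes. On exon counts Gabra4, Gabra5 and Gabrd stayed separate. Gabra3 overlapped there (149.9 and 139.3 CPM in vehicle-treated, 150.8 and 149.7 CPM in AZD-8055 mice). Gabrb2 also overlapped on exons (291 and 287 against 278 and 303 CPM), and its RNA estimate was 0.01, next to 0.12 on CDS.

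Some marker lists also leaned to 1 side between the same libraries, with few calls. RNA estimates were above 0 for 9 of 12 excitatory, 1 of 10 astrocyte and 1 of 10 oligodendrocyte markers, and 0 of these were called. They were above 0 for 8 of 12 inhibitory neuron, 5 of 8 endothelial and 4 of 6 oligodendrocyte precursor markers, with 0 called. For microglia 2 of 10 and for dentate granule neurons 1 of 3 markers tested were above 0, with 0 called. Of 9 striatal neuron markers tested, 9 had RNA estimates above 0 and 1 was called by edgeR, and their summed RNA level was 1823 to 1885 CPM in vehicle-treated and 2109 to 2255 CPM in AZD-8055 mice. Of 7 thalamic neuron markers, 6 had estimates under 0 and 0 were called, and their sum was 128 to 144 CPM in vehicle-treated and 86.3 to 107 CPM in AZD-8055 mice. No striatal or thalamic marker was at 0 in any of these libraries. The part of all these cell types in the values of the GABA-A receptor genes was not tested. In unsorted tissue fewer cells of a type and less RNA per cell cannot be told apart.

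In footprints, Gabra2 had the lowest estimate, with 252 and 214 CPM in the vehicle-treated and 230 and 195 CPM in the AZD-8055 mice. These groups overlapped, and the log2 change was −0.15 (95% interval −0.39 to 0.09, edgeR adjusted p = 0.597). Without mouse C it was called lower at −0.28 (edgeR adjusted p = 0.0363). Footprints of Gabrb2 were at 326 and 331 CPM against 321 and 328 CPM, a log2 change of −0.02 (95% interval −0.18 to 0.13, edgeR adjusted p = 0.911), the narrowest interval of the 7.

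TE estimates were under 0 for all 7 genes, next to 51.5% of all genes. They ran from −0.07 for Gabra3 to −0.25 for Gabra4, and 0 of the 7 passed the test. The value for Gabra4 was −0.25 ± 0.12 (SE, 95% interval −0.51 to 0.01, edgeR adjusted p = 0.751), with log2 TEs of 0.42 and 0.50 in mice A and B and of 0.08 and 0.31 in mice C and D. For Gabra2, the gene with the pyrimidine start, the TE change was −0.20 (95% interval −0.50 to 0.09, edgeR adjusted p = 0.841). The lower bounds of the 7 intervals ran from −0.31 for Gabra3 to −0.51 for Gabra4, and decreases within them were not detectable with 2 mice per group. The TE, RNA and footprint estimates come from the same 8 libraries and are not independent of each other.

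**Figure D3:**
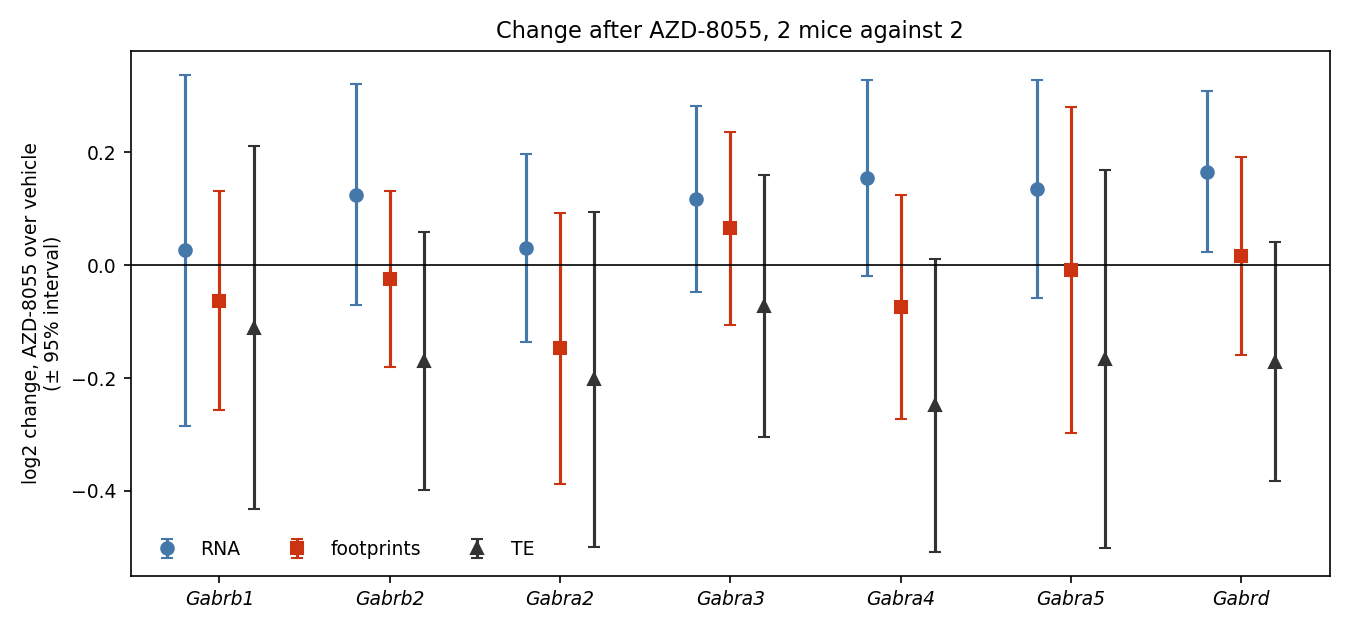
Log2 change of RNA, footprints and TE in 2 AZD-8055 mice over 2 vehicle-treated mice (y axis) for each gene, bars giving the 95% interval of the edgeR fit. All 7 TE points lie under 0 and all 7 TE intervals reach above it, while all RNA points lie above 0.

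The last comparison asks which subunit mRNAs were enriched on the tagged polysomes of excitatory neurons. On CDS counts, 1 member was higher and 5 were lower in IP than in input, where 36.5% of 12211 genes were called higher and 39.0% lower by edgeR. The δ subunit gene was enriched, β2 was the most depleted, and α2, β1, α3 and α4 were depleted to a lesser degree. The lower calls of β2, α3 and α4 were lost when UTR reads were added to CDS reads. Those of α2 and β1 were kept there, but lost when reads outside CDS were counted alone, where β1 had only 51 to 105 reads per library.

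Gabrd was at 114 and 124 CPM in input and at 197 and 219 CPM in IP of mice E and F. Both mice moved alike, with log2 enrichments of 1.33 and 1.41 on the size factor scale, and the edgeR estimate was 1.24 ± 0.12 (SE, adjusted p = 2.34e-05), or 2.36-fold. On exon counts it was 0.95 ± 0.09 (SE, edgeR adjusted p = 0.000243). Gabrd was the one member called higher on CDS, on exons and on exon counts outside CDS.

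Gabrb2 was at 75.6 and 95.1 CPM in input and at 7.84 and 6.32 CPM in IP of mice E and F, which were 73 and 63 reads in the IP libraries. The log2 enrichment on CDS was −2.72 and −3.33 in the 2 mice, and only 0.479% of 10439 genes lay lower. The edgeR estimate was −3.16 ± 0.19 (SE, adjusted p = 2.88e-06), or 8.92-fold lower. On exon counts the same gene was at 299 and 400 CPM in input and at 233 and 309 CPM in IP, and the estimate was −0.09 ± 0.17 (SE, edgeR adjusted p = 0.651).

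Reads of Gabrb2 on CDS fell far more in IP than its reads outside CDS, which were most of its exon counts. Exon counts of Gabrb2 were 6.89 and 7.53 times its CDS counts in input, and 62.9 and 109 times in IP. This ratio rose 9.13-fold and 14.5-fold from input to IP in mice E and F, next to a median of 1.19 and 1.25 over 10151 genes, which put Gabrb2 at percentile 99.96 in mouse E and 99.99 in mouse F. Reads of Gabrb2 outside CDS were at 256 and 347 CPM in input and at 230 and 306 CPM in IP.

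The ratio also rose for the α subunits and for Gabrb1. For Gabra4 it was 2.33 and 2.54 in input and 5.46 and 7.54 in IP, and for Gabra3 2.44 and 2.50 in input and 4.66 and 5.75 in IP. Gabra2 went from 1.43 and 1.53 to 2.45 and 2.83. In mice E and F the rise was 1.42-fold and 1.70-fold for Gabra5 and 1.43-fold and 1.62-fold for Gabrb1. Among all genes these rises lay at percentiles 92.7 and 94.2 for Gabra4, 86.5 and 88.0 for Gabra3, and 81.4 and 79.1 for Gabra2. They lay at 68.6 and 75.2 for Gabra5 and at 69.1 and 71.8 for Gabrb1. For Gabrd the ratio was 1.15 in both inputs and 1.28 and 1.31 in IP, a rise smaller than the median of all genes. How library preparation, transcript ends or annotation enter these ratios was not tested.

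Gabra4 fell from 93.6 and 113 to 56.0 and 43.4 CPM on CDS in mice E and F, an edgeR estimate of −0.62 ± 0.16 (SE, adjusted p = 0.00618). It turned to 0.31 ± 0.13 on exon counts (SE, edgeR adjusted p = 0.0694), and with exon counts and the mouse as a block it was called higher (0.31, edgeR adjusted p = 8.68e-05). Gabra3 fell from 115 and 146 to 62.5 and 61.8 CPM on CDS (−0.64 ± 0.14, SE, edgeR adjusted p = 0.00312), but was at −0.03 ± 0.13 on exon counts (SE, edgeR adjusted p = 0.870). CPM scales by total counts, and on that scale the median gene was at −0.50 in IP over input. Neither gene was called lower on exon counts.

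Gabra2 and Gabrb1 were lower by both counts, which are not independent, since exon counts include the CDS reads. Gabra2 was at 97.7 and 114 CPM in input and at 27.3 and 36.8 CPM in IP, with edgeR estimates of −1.29 ± 0.17 on CDS (SE, adjusted p = 0.000127) and −0.92 ± 0.19 on exons (SE, adjusted p = 0.00550). Gabrb1 was at 24.2 and 22.5 CPM in input and at 7.52 and 10.1 CPM in IP, with edgeR estimates of −0.96 ± 0.21 (SE, adjusted p = 0.00240) and −0.81 ± 0.21 (SE, adjusted p = 0.0140). The mice differed for Gabrb1, with log2 enrichments of −1.13 in mouse E and −0.56 in mouse F.

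Gabra5 was at 58.1 and 70.5 CPM in input and at 59.3 and 57.3 CPM in IP, which overlapped. Relative to other genes the edgeR estimate on CDS was 0.29 ± 0.14 (SE, adjusted p = 0.0775), and it was called higher with the mouse as a block (0.30, edgeR adjusted p = 0.0209) and on exon counts (0.47 ± 0.12, SE, edgeR adjusted p = 0.0128). With total counts as the scale it was at −0.14, because the median gene then moved from −0.07 to −0.50 and the calls among all genes from 4455 higher and 4766 lower to 3036 higher and 6257 lower.

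On exon counts 2 members were called higher (Gabrd and Gabra5) and 2 lower (Gabra2 and Gabrb1), where 33.7% of 13254 genes were higher and 35.7% lower. On exon counts outside CDS, an alternative added after seeing the data, 2 were called higher (Gabrd and Gabra5) and 0 lower, where 29.1% of 9947 genes were higher and 30.5% lower. There Gabra2 was at −0.49 (edgeR adjusted p = 0.0764), Gabrb2 at −0.40 (edgeR adjusted p = 0.0524) and Gabrb1 at 0.00 (edgeR adjusted p = 0.992). Gabrb1 had 64 and 92 such reads in input and 51 and 105 in IP of mice E and F. Its 95% interval, −0.66 to 0.66, was wide. At an unadjusted p under 0.05 Gabra2 and Gabrb2 would be lower and Gabra4, at 0.32, higher. In this fit 6410 of 9947 genes had an unadjusted p under 0.05 in either direction.

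**Figure D4:**
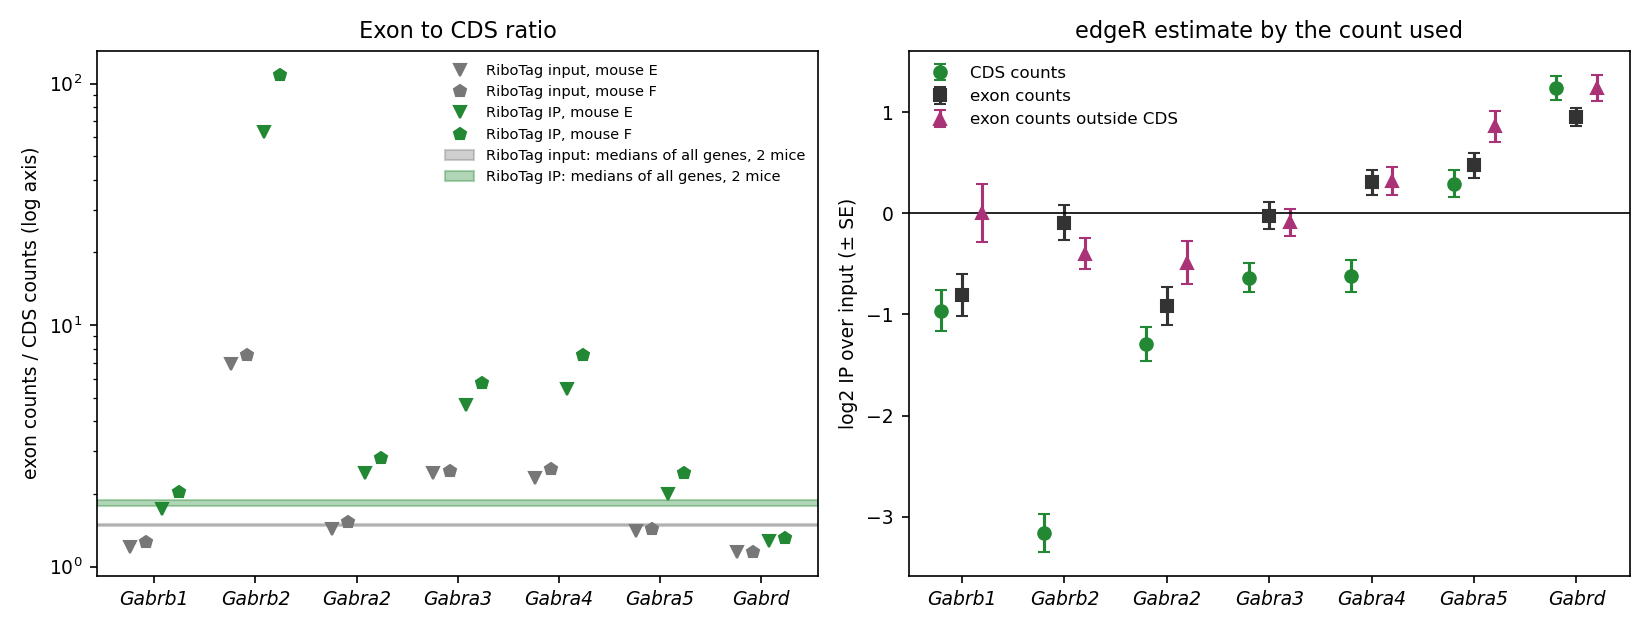
Left, exon counts divided by CDS counts (log axis) of each gene in input and IP of mice E and F, with bands for the medians of all genes; Gabrb2 reaches 62.9 and 109 in IP. Right, edgeR log2 estimates of IP over input by the count used, bars giving the SE; Gabrb2 lies at −3.16 on CDS and −0.09 on exons, while Gabrd lies above 0 by each count.

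Cell type markers were read from the same 4 libraries. The summed level of 12 excitatory markers rose from 5101 to 5453 CPM in input to 7013 to 7588 CPM in IP, although on CDS 6 were called higher and 5 lower, Camk2a, the gene whose promoter drives the Cre, among the lower (−0.66). On exon counts 7 were higher and 1 lower, and Camk2a was at 0.27 (edgeR adjusted p = 0.105). Among all genes 36.5% were called higher and 39.0% lower on CDS, and 33.7% and 35.7% on exons. Of 12 inhibitory markers 10 were lower by both counts and 1 was higher, Cck, and their summed CPM was 1599 to 1645 in input and 1803 to 1895 in IP. Astrocyte markers were lower in 10 of 10 cases, from 2521 to 2626 CPM in input to 238 to 265 CPM in IP. No marker of these 3 lists was at 0 in any of the 4 libraries, and the part of cell type composition in the values of single subunits was not tested.

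The other genes of the pathway give the setting. For TE in the vehicle-treated mice 37.1% of all genes were called higher and 36.7% lower. In IP 36.5% were higher and 39.0% lower on CDS, and 33.7% and 35.7% on exons. The counts below are to be read beside these shares. The table held 12 further GABA-A receptor subunit genes. Of these 6 passed the count minimum for TE, a mean over RNA and footprint libraries together, and 5 passed it in RNA libraries alone. In the vehicle-treated mice 6 were called higher on CDS, between 1.28 and 2.71 on the log2 scale, where 37.1% of genes were. A gene can pass this minimum through high footprints, so the count of 6 is partly set by the minimum. In IP, 4 of 5 tested were called lower on CDS and 2 of 5 on exons, and 0 were called higher.

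Genes of GABA synthesis and breakdown were all higher in TE (4 of 4) and all lower in IP by both counts (4 of 4). Gad2 and Gad1, the enzymes that make GABA, were at 2.26 and 1.01 in TE and at −3.78 and −2.42 in IP on CDS. All TE values of the pathway lists use RNA counted on CDS. Their TE with RNA counted on exons, which moved several members, is not reported here. Of 4 GABA transporters, 2 were higher in TE and 4 lower in IP by both counts. The chloride carriers Slc12a2, which loads cells, and Slc12a5, which extrudes chloride from mature neurons, were both higher in TE (1.17 and 0.49). In IP both were lower on CDS (−3.67 and −0.81), and Slc12a5 was at −0.04 on exons and not called (edgeR adjusted p = 0.724).

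Of 5 genes for GABA-B receptors and their auxiliary subunits, 3 were higher and 2 lower in TE, with Kctd16 at 2.51 and the receptor subunit gene Gabbr1 at −0.61. In IP 1 was higher and 3 lower by both counts. Of 7 scaffold and adhesion genes of inhibitory synapses, 2 were higher and 3 lower in TE, where 37.1% and 36.7% of all genes were. Rdx, radixin, which anchors receptors with α5, was at 1.29, and Nlgn2, an adhesion protein of these synapses, was at −1.15 in TE and called higher in IP (0.28 on CDS and 0.71 on exons). Gphn, for gephyrin, the main scaffold, was at −0.20 on CDS and −0.09 on exons in IP and was not called by either.

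Of 13 genes that act in receptor trafficking, 7 were higher and 5 lower in TE, with Mkln1 highest at 1.26 and Trak1, a transport adaptor, lowest at −1.64. In IP 6 were higher and 3 lower on CDS, and 7 and 3 on exons, with Gabarapl1 at 1.21 and 1.26. Among all genes 36.5% were higher and 39.0% lower on CDS, and 33.7% and 35.7% on exons. After AZD-8055 0 genes of these 6 pathway lists and 0 of the further subunit genes were called for RNA, footprints or TE by edgeR.

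As a last description, the genes most like each member were read from log2(CPM + 1) across the 12 libraries after removing the mean of each kind of library, among 12014 genes. Pearson's r was 0.98 for Gabrd with Wdr11, 0.98 for Gabra5 with Elp3, 0.97 for Gabrb2 with Cntnap2, 0.96 for Gabra2 with Copb1, 0.94 for Gabra3 with Kdr, 0.94 for Gabra4 with Pfn2 and 0.92 for Gabrb1 with Hsd11b1. The second in rank were Cln6, Large, Mgat5, Zfp426, Actr3b, Tmem135 and Rgs17 in the same order. No member was among the 2 genes most like another, and between members r ran from −0.64 for Gabra4 with Gabrb1 to 0.84 for Gabra4 with Gabrb2. These values share libraries and depth, rest on few mice and are highest of many, so they carry no test.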

How the data were processed

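Poly(A) RNA-Seq (TruSeq V2) and ligation-free ribosome profiling libraries of mouse brain were analysed. The authors deposited raw, unnormalized counts of reads per gene, in a CDS table of 12 libraries and an exon table of 8 RNA-Seq libraries. For footprints they trimmed and clipped reads, used Bowtie2 to discard rRNA and TopHat2 to align the rest, and ran HTSeq with strict intersection. The submitters' processing notes name mm10, and versions and strand settings are not given in the sources used here.

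From these counts, CPM, TE and RiboTag enrichment (DESeq2 1.42.0 size factors, genes with at least 75 counts summed over both mice) were computed. Comparisons used edgeR 4.0.16 (TMM, quasi-likelihood F-test, Benjamini-Hochberg over all genes, adjusted p under 0.05, mean of at least 37 counts per library), with all 8 libraries of mice A to D in 1 fit for TE. DESeq2 and limma 3.58.1 were alternatives, beside other scalings and filters, exon counts, a block for the mouse and leaving out each mouse. Python 3.11 gave summaries. The procedures were tested on simulated data. The members, gene lists and rules were chosen with earlier results of these data known. Named were the 7 members, pathway genes that passed a test or had the largest changes of their list, and the 2 genes most like each member. Marker lists not described in the text are not reported further, and some genes and 1 sequence that these rules cover are not reported here.

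Mouse letters pair libraries, since libraries with 1 letter come from 1 animal. Across genes with at least 37 counts, the A to B difference in RNA and that in footprints had r = 0.249 (10169 genes). The value was 0.199 for mice C and D (9365 genes) and 0.482 for E and F, input against IP (10151 genes). Replicates are single mice, 2 in each group. The p-values rest on a spread estimated over all groups of a fit, with information shared across genes. The main fits for TE and IP do not pair the libraries of 1 mouse.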

Additional observations from a re-analysis of the deposited data

How the results depend on the processing

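For the 7 genes, 486 of 546 alternative estimates of a log2 change kept their direction and their side of the threshold or, without a test, their direction to within 1 SE. Of those kept, 89 for RNA, 71 for footprints and 91 for TE compare AZD-8055 with vehicle, where 0 members were called at the outset. An estimate also counts as kept when its size changes much, as for Gabrb2 TE in vehicle-treated mice (2.96 on CDS, 0.32 with RNA on exons). The cause of the changes in estimates that were not kept was not tested, except that requiring a fold change over 2 lets fewer genes pass by construction. Under that limit the calls numbered 3640 genes and 3 members higher for TE in vehicle-treated mice, 3451 genes, 3 members higher and 0 lower for TE in AZD-8055 mice, 4 genes for RNA, 36 for footprints and 36 for TE after AZD-8055, and 5680 genes and 2 members lower for IP. DESeq2 called 1 member lower for TE in AZD-8055 mice and 28 genes for RNA after AZD-8055, and total-count scaling 2 members lower for TE in vehicle-treated mice and 29 genes for RNA. In IP, RLE factors, a mean of at least 1 count, exon counts and the replicate block each called 2 members higher, Gabra5 being the addition, and exon counts with the replicate block called 3. Exon counts called 2 members lower, with and without the block. With exon counts outside CDS, 5927 genes, 2 members higher and 0 lower were called in IP, and 5 genes for RNA after AZD-8055.

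With RNA counted on exons, 1 member was called lower for TE in vehicle-treated mice and 1 in AZD-8055 mice. Gabra4 then reversed to −0.29 and −0.45 and Gabrd to 0.50 and 0.34, and Gabra5 in vehicle-treated mice, not called either way, to 0.051. In IP Gabra4 reversed to 0.31 on exon counts, 0.31 with the block added and 0.32 outside CDS, and Gabrb1 to 0.0039 outside CDS, and Gabra5, not called either way, to −0.14 with total counts. After AZD-8055, uncalled estimates reversed for Gabrb1 RNA outside CDS (−0.073) and for Gabrd footprints with a mean of at least 1 count (−0.018). Per-mouse enrichment changed sign on exon counts for Gabra3 (0.10), Gabra4 (0.43) and Gabrb2 (0.024), and for Gabra5 with total counts (−0.13). With size factors this measure had its median gene at 0.30 on CDS and 0.19 on exons. Gabra3 and Gabrb2 thus stayed under the median gene on exons.

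Leaving out 1 mouse left 1 library in an arm, assumed to vary like the others. Called genes ran from 7076 to 8752 for TE in vehicle-treated mice, 7046 to 8224 for TE in AZD-8055 mice with 0 to 2 members lower and 4 to 5 higher, 13 to 36 for RNA, 64 to 837 for footprints with 0 to 1 member lower, and 56 to 77 for TE after AZD-8055. Uncalled changes after AZD-8055 that crossed 0 ran from −0.027 to 0.088 for Gabra2 RNA, and in footprints from −0.14 to 0.13 for Gabra5, −0.14 to 0.033 for Gabrb1 and −0.017 to 0.044 for Gabrd. Without mouse E or F no test was possible for IP, and Gabra4 was at −0.90 and −0.32, Gabrb1 at −0.67 and −1.26. Paired fits with the replicate block called 8980 and 8579 genes for TE, 144 for the TE change and 10006 for IP, and changed no other call of a member on CDS.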
